A study of Ovis aries with 32 samples.

Results

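Untreated middle cerebral arteries (MCA) of adult sheep were compared with those of near-term fetuses on 8 of the 32 arrays of the series, 4 for each age. The arrays were chosen by their labels, as all untreated arrays of the adult and near-term groups, which were scanned on the same day. Adults were non-pregnant ewes, given as 2 years old in the sample labels and as 18 to 24 months in the design text. Near-term fetuses are given as 146 days of gestation in the labels and as 140 days in the design text. MCA were cleaned of fat and connective tissue, segments were kept for 30 minutes in oxygenated Krebs buffer, and the untreated segments received no phenylephrine (PHE), the alpha-1 adrenergic agonist given at 10 µM to the treated segments. Ewes were under thiopental and isoflurane, and 1 fetus of a twin pair was used. Fetal sex and any removal of endothelium are not given in the sources used here. They state 4 animals per experiment but do not tie single arrays to animals, so p-values measure the spread between these samples. The comparison addresses how the resting transcriptome of the artery differed between the end of gestation and adult life.

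The wall of a cerebral artery is made of smooth muscle cells inside an elastic and collagenous matrix, lined by endothelium and surrounded by adventitial and leptomeningeal cells with nerves and resident immune cells. In fetal arteries, smooth muscle still divides and lays down elastin, whereas adult muscle is mostly quiescent and contractile. The insulin-like growth factor axis and imprinted transcripts such as MEG3 and IGF2 are typical of growing fetal tissue.

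A value is given as the log2 of the probe's intensity relative to the 75th percentile of its array, so that 0 is that percentile. The number of arrays limits the precision. The 75th percentile intensity was 1014 to 1710 on the adult arrays and 599, 1368, 391 and 124 on near-term replicates 1 to 4. On near-term replicate 4 it was only 1.08 times the median background, against 7.65 to 15.3 times in adults. The lowest level well above background was -7.0 to -6.04 in adults and -6.73, -5.33, -5.05 and -3.76 on near-term replicates 1 to 4, so that the dim end of the scale differed between ages. Near-term arrays also spread more, with a median SD of 0.524 against 0.316. Across probes, arrays correlated at 0.95 to 0.983 among adults, 0.875 to 0.964 among near-term fetuses and 0.744 to 0.902 between ages.

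Of 9364 genes tested, 2632 differed between the ages, which is 28.1%. A gene was called different at a limma adjusted p under 0.05 and at least 1.5-fold, two-sided. In adults 1158 genes were higher (12.4%), and in near-term fetuses 1474 were higher (15.7%). The 4 arrays of one age lay wholly above the 4 of the other for 3117 genes (33.3%) and for 2440 of those called. The median fold was 3.44 for near-term-higher and 2.49 for adult-higher calls, and 652 and 168 of them reached 4-fold. These sizes are not on the same footing, since near-term replicates 2 to 4 did not resolve levels as low as the adult arrays did. Without near-term replicate 4, 2592 genes were called, 2293 of them also called with all 8 arrays. Counts fell most without an adult array, to 1662 calls without replicate 1, and adult-higher calls numbered 655, 723 and 704 without adult replicates 1, 2 and 4. The balance between the directions depended on scaling. Adult-higher genes made up 44% of calls here, 26.4% after normexp background correction, 60.6% after quantile normalization and 69.2% when arrays were scaled to their median, and the median difference over all genes was -0.01, -0.43, 0.28 and 0.51 in turn. A symbol was available for 1817 of the genes tested and 562 of those called, and many of these names exist here only for genes that the study listed as altered by PHE at some age. In bulk tissue, fewer cells of a type and less RNA per cell cannot be told apart.

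**Figure D1:**
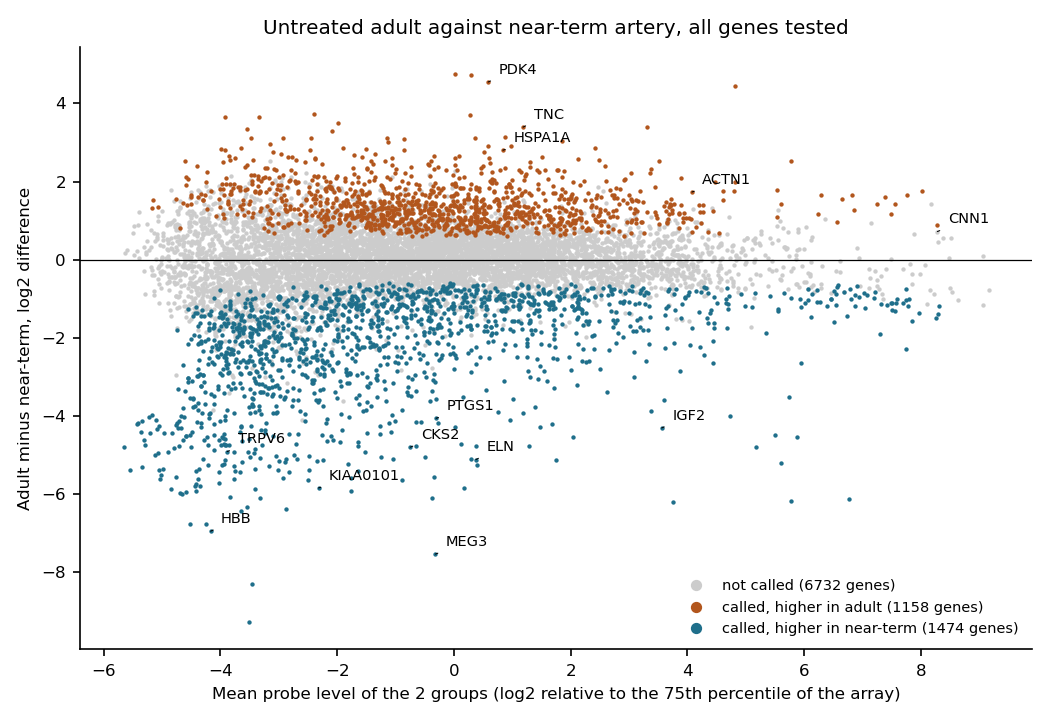
Each point is 1 of the 9364 genes tested, with the mean probe level of both groups on the x axis and the adult minus near-term log2 difference on the y axis, coloured by call. Near-term-higher calls reach further from 0 than adult-higher calls and lie more often at low levels, and the labelled genes are described in the text.

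Slides held arrays of both ages. Slide 3 carried adult replicates 1 and 2 with near-term replicates 2 and 3, slide 2 carried adult replicates 3 and 4 with near-term replicate 1, and near-term replicate 4 was alone on slide 1. With the slide as a block, 2095 genes were called. Within slide 3, all 2626 called genes measured there differed in the same direction, and within slide 2 this held for 2626 of 2630, although these are arrays of the comparison itself. Tested on their own, slide 3 gave 597 calls and slide 2 gave 331. Near-term replicate 4 was the highest near-term array for 48.2% of the near-term-higher calls and the lowest for 49% of the adult-higher calls. Adult replicate 1 was the highest adult array for 12.2% of the near-term-higher calls, and each of the other 3 for 25.6% to 31.9%.

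PDK4 had the largest adult-higher difference among genes with a symbol. It encodes the kinase that switches off pyruvate dehydrogenase and so limits the entry of glucose carbon into the citric acid cycle. Its levels were 3.03, 2.00, 3.54 and 2.87 on adult replicates 1 to 4 and -0.72, -1.73, -3.18 and -1.12 on near-term replicates 1 to 4. The groups stood far apart, and the adult mean was 23.4-fold higher (log2 difference 4.55, SE 0.54, limma adjusted p = 0.000694). TNC, which encodes the matrix glycoprotein tenascin-C, read 2.73, 2.55, 3.14 and 3.11 in adults and 0.29, -0.96, -0.09 and -1.28 in near-term fetuses. All adult arrays were above all near-term arrays, by 10.5-fold on average (limma adjusted p = 0.000407). PDK4 and TNC kept their calls in all 8 fits without 1 array and under each other scaling, background correction and filter tried.

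The 15 adult-higher genes with the largest difference spanned 5.84-fold to 23.4-fold. MAPRE2, a protein of growing microtubule ends, was 11.3-fold higher in adults, VWA1, a matrix protein, 10.1-fold, and NUDT4, an inositol phosphate hydrolase, 8.12-fold. TACC1 was 6.3-fold and the ubiquitin ligase receptor DCAF8 6.53-fold higher. PALLD, which encodes the actin-associated protein palladin, was 6.23-fold higher with all arrays (limma adjusted p = 0.0279). Its call was lost when adult replicate 3 or 4 or near-term replicate 1 or 3 was left out, with an adjusted p of up to 0.0672. The calls of FXR2 (6.5-fold), CARM1 (5.84-fold) and TRIM47 (6.15-fold) were lost without adult replicate 4 (adjusted p of up to 0.0602 over their fits without 1 array), and that of TRIM47 also without adult replicate 1 or 3. DNAJC11 was 6.98-fold higher in adults, but DNAJC11, TRIM47 and CARM1 turned to near-term-higher without a call after normexp background correction. Of the 15, PDK4, TNC, HSPA1A and TACC1 kept their calls after that correction. VWA1, DNAJC11 and FXR2 were well above background on 1 of 4 near-term arrays and TRIM47 and CARM1 on 2, so their folds rest on dim near-term values. With a common floor, all levels being raised to the floor of the dimmest array, the log2 difference of VWA1 went from 3.33 to 1.89, of DNAJC11 from 2.80 to 1.23, of FXR2 from 2.70 to 1.92, of TRIM47 from 2.62 to 1.95 and of CARM1 from 2.55 to 1.54, still called.

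Several stress-response genes were higher in adults. Of 14 tested heat shock and chaperone genes, 5 were called higher in adults, against 12.4% of all genes, and none in near-term fetuses. The median difference of the list was 0.53, against -0.01 over all genes. HSPA1A, the inducible Hsp70 chaperone, had levels of 2.37, 1.69, 2.71 and 2.19 in adults and -0.62, -0.09, -1.03 and -0.50 in near-term fetuses. Every adult array exceeded every near-term array, and the mean difference was 6.97-fold (limma adjusted p = 0.000343), with log2 differences of 2.72 and 2.80 for its 2 probes. BAG3, a co-chaperone of Hsp70, read 1.93, 2.18, 1.91 and 1.74 in adults and 0.81, 0.45, 0.88 and 0.24 in near-term fetuses, again without overlap. HSPA8, the constitutive Hsp70, was 3.64-fold higher. HSP90AA1 (1.91-fold) and DNAJB1 (1.77-fold) also passed, but each call was lost in 5 of the 8 fits without 1 array, for both without adult replicate 1, 3 or 4 or near-term replicate 3, for HSP90AA1 also without adult replicate 2 and for DNAJB1 also without near-term replicate 4 (adjusted p of up to 0.114), and DNAJB1 turned to near-term-higher without a call after normexp correction. The list kept 3 calls without adult replicate 3 and 2 with slide as a block.

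Among 23 tested immediate early genes, which respond within minutes to stimuli, 5 were higher in adults, against 12.4% of all genes, and 1 in near-term fetuses, against 15.7% (median difference 0.51). One of the 5, ATF3, passed the filter through the adult arrays alone, so the count is a description. NR4A2, a nuclear receptor, had levels of 1.70, 1.64, 1.94 and 2.23 in adults and 0.25, 0.28, 0.02 and -0.02 in near-term fetuses, with no overlap and a narrow spread in both. MCL1 (3.24-fold) and FOSL2 (2.68-fold) were higher in adults on every array. ATF3, a stress-induced transcription factor, was 7.31-fold higher, although its lowest adult array, replicate 2 at -2.33, was close to the highest near-term array at -2.63. PPP1R15A, which reverses the translational block of the stress response, was outside the list and was 6.08-fold higher in adults (limma adjusted p = 0.0014). ATF3 and PPP1R15A were each well above background on 2 of 4 near-term arrays, and with the common floor their log2 differences went from 2.87 to 2.80 and from 2.60 to 2.37, still called. CCN2, a matricellular protein, was 4.12-fold higher, a call lost without adult replicate 1, 3 or 4 or near-term replicate 3 (adjusted p of up to 0.0858). MYC was the member higher in near-term fetuses, at 2.27-fold, and its call was lost in 5 of the 8 fits without 1 array, those without adult replicate 1, 2 or 4 or near-term replicate 2 or 4 (adjusted p of up to 0.122).

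The smooth muscle markers that carried a symbol here, CNN1 and MYLK, were well above background on all 8 arrays, and the other defining markers, ACTA2 and MYH11 among them, were not named here. Of 7 tested members of the contractile list, 3 were called higher in adults, against 12.4% of all genes, and none in near-term fetuses (median difference 0.72), and 1 of the 3 calls was kept in all 8 fits without 1 array. ACTN1, the actin crosslinker alpha-actinin, read 4.54, 5.18, 4.68 and 5.37 in adults and 3.42, 3.49, 3.16 and 2.79 in near-term fetuses, a 3.32-fold difference without overlap (limma adjusted p = 0.0025). MYLK, which encodes myosin light chain kinase, read 7.68, 7.45, 7.16 and 8.30 in adults and 5.40, 5.57, 7.54 and 5.51 in near-term fetuses. Near-term replicate 3 lay within the adult range, and the 3.12-fold difference was lost in 7 of the 8 fits without 1 array, all but the one without near-term replicate 3 (adjusted p of up to 0.0982). FLNA (3.49-fold) lost its call in 6 of the 8 fits, all but those without adult replicate 3 or near-term replicate 2 (adjusted p of up to 0.0863). It was well above background on 3 of 4 near-term arrays and passed the filter through the adult arrays alone, so the count of 3 is a description. Without near-term replicate 4, and with slide as a block, 1 of the 3 calls was kept, that of ACTN1. CNN1, the thin-filament protein calponin, read 9.02, 9.03, 7.76 and 8.77 in adults and 8.23, 7.08, 8.68 and 7.70 in near-term fetuses, with overlapping groups and no call (limma adjusted p = 0.218). The cytoskeletal genes VIM (0.45), ACTB (0.37) and ACTG1 (-0.38) gave no call either, although the second ACTB probe differed by 2.50.

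MEG3 showed the largest difference of any gene with a symbol. This imprinted non-coding RNA is expressed from the maternal allele and is abundant in fetal tissue. Its probe read -3.59, -3.97, -4.51 and -4.27 in adults and 3.89, 3.67, 4.01 and 2.23 in near-term fetuses. The near-term mean was 185-fold higher (log2 difference -7.53, SE 0.41, limma adjusted p = 1.67e-05), and the second probe tested gave a log2 difference of -5.06. In adults that second probe was well above background on 2 of 4 arrays. The other 2 MEG3 probes did not pass the filter, being well above background on 2 and 1 near-term arrays and 0 adult arrays. Both read -6.73 and -6.05 on near-term replicates 1 and 3, where the brightest probe read 3.89 and 4.01.

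Many genes of the growth factor axis were higher in the near-term artery. Of 15 tested genes of this axis and of imprinted genes, 8 were higher in near-term fetuses and 1 in adults, against 15.7% of all genes called higher near term, with a median difference of -1.31. One of the 8, IGF1, passed the filter through the near-term arrays alone, so the count is a description. IGF2, the fetal growth factor, read 0.37, 1.56, 2.58 and 1.11 in adults and 5.50, 5.31, 5.04 and 7.0 in near-term fetuses. Its lowest near-term value exceeded the highest adult value by more than the whole adult range, and both of its probes showed the difference (log2 -4.64 and -4.31). IGF1 had levels of -5.79, -5.14, -5.54 and -5.75 in adults, well above background on 3 of the 4 arrays, and -2.06, -0.16, -0.94 and 1.03 in near-term fetuses, a 32.5-fold difference (limma adjusted p = 0.000578) that became -3.22 on the log2 scale with the common floor, in place of -5.02. Binding proteins of these factors moved the same way, IGFBP3 by 18.1-fold, IGFBP5 by 5.33-fold and IGFBP6 by 3.37-fold, and so did IGFBP4. PEG10, a paternally expressed gene, was 4.87-fold higher in near-term fetuses. IGF2R, the receptor that clears IGF2, was the adult-higher member, with -1.47, -1.39, -0.38 and -1.47 in adults and -2.82, -2.74, -3.51 and -3.73 in near-term fetuses and no overlap. FST, which encodes the activin-binding protein follistatin, was outside the list and read -3.84, -2.34, -2.23 and -3.64 in adults against 1.91, 2.51, 1.69 and 2.03 in near-term fetuses. Its 2 probes gave log2 differences of -5.05 and -5.01, and the brighter one was 33-fold higher near term (limma adjusted p = 0.00010).

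Several genes of DNA replication and cell division were far higher in near-term fetuses. KIAA0101, also called PCLAF, encodes a partner of the replication clamp PCNA and read -5.15, -4.99, -4.84 and -5.96 in adults and 0.63, 0.41, 1.15 and 0.21 in near-term fetuses. The difference was 57.3-fold with a narrow spread in both groups (SE 0.32, limma adjusted p = 1.59e-05). CDCA7, a cell division gene, was not well above background on any adult array and was at least 19.7-fold higher in near-term fetuses, where the bound sets the near-term mean against the lowest level that each adult array could resolve. TCF19, a gene of late G1, was 33.4-fold higher, and EZH2, the histone methyltransferase of Polycomb complex 2, was also called. EZH2 was well above background on 2 adult arrays, and its log2 difference of -4.87 became -2.09 with all levels raised to the floor of the dimmest array, where that of KIAA0101 was -4.36, both still called. In the cell cycle list, 4 of 12 tested genes were higher in near-term fetuses, against 15.7% of all genes, and none in adults. The median difference was -0.27, which became 0.25 with median scaling. CKS2, a subunit of cyclin-dependent kinases, read -3.08, -3.22, -2.91 and -3.36 in adults and 1.75, 1.73, 1.89 and 1.25 in near-term fetuses, with a narrow spread and a wide gap between the ages (SE 0.22, limma adjusted p = 6.87e-06). TYMS, thymidylate synthase, was 7.82-fold, the nuclear lamin LMNB1 9.82-fold and PCNA itself 3.19-fold higher. With the common floor the log2 differences of TYMS and LMNB1 went from -2.97 to -2.08 and from -3.30 to -1.78, still called. The other 8 members gave no call, H2AZ1 (-0.65) and FEN1 (-1.55) having the smallest p among them, both with overlapping groups. Without near-term replicate 4, H2AZ1 was called (log2 difference -0.83, limma adjusted p = 0.024).

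The other leading near-term-higher genes had roles in signalling, the cytoskeleton and chromatin. EML1, a microtubule-binding protein, read -7.73, -7.76, -5.37 and -8.10 in adults and -1.46, -2.30, -1.09 and -0.97 in near-term fetuses, and was well above background on 1 adult array, replicate 3. The difference was 55.1-fold without overlap (log2 difference -5.78, limma adjusted p = 0.000342). KIF26A, an atypical kinesin, was 42.1-fold, MARCKSL1, an actin-regulating substrate of protein kinase C, 41-fold, and NRARP, a feedback inhibitor of Notch signalling, 31-fold higher. KIF26A was well above background on 1, NRARP on 2 and MARCKSL1 on 3 adult arrays, so their folds rest on dim adult values. With the common floor, the log2 differences of EML1, KIF26A, NRARP and MARCKSL1 were -2.30, -2.04, -2.81 and -3.03, still called. YEATS2, a reader of histone acylation, read -3.31, -2.84, -4.68 and -3.52 in adults and 1.76, 1.79, 1.41 and 1.08 in near-term fetuses, well above background at both ages and far apart.

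Matrix genes changed in both directions. ELN, which encodes the elastin of the elastic laminae, read -2.34, -3.38, -1.44 and -1.56 in adults and 2.95, 3.73, 1.30 and 3.75 in near-term fetuses, 34.7-fold higher in the latter (limma adjusted p = 0.00075). FBLN1, an elastin-binding fibulin, followed with -3.63, -2.57, -1.90 and -3.28 in adults and 0.28, 2.21, -0.44 and -0.17 in near-term fetuses. Neither gene overlapped between the ages. THBS2 (5.58-fold), TGFBI (5.83-fold), the small proteoglycan DCN (3.36-fold) and BGN (2.19-fold) were also higher in near-term fetuses, and the call of BGN held in 1 of the 8 fits without 1 array, that without near-term replicate 4. In all, 6 of 13 elastic fibre and matrix genes were higher near term, against 15.7% of all genes, and 3 in adults, against 12.4%, namely TNC, CCN2 and the laminin chain LAMA5 (3.43-fold). The median difference was -0.26, turning to 0.26 with median scaling.

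Fibrillar collagens spread widely among near-term arrays. COL1A1 read -1.70, -1.83, -0.81 and -1.98 in adults and 0.89, 2.85, -1.99 and 0.62 in near-term fetuses, and COL3A1 read -0.64, -1.37, 1.05 and -1.02 and 0.10, 2.66, -0.70 and -0.21. Near-term replicate 2 was the highest array for both and near-term replicate 3 lay inside or just below the adult range, and neither gene was called (limma adjusted p = 0.0893 and 0.376). COL4A3, a basement membrane chain, was the collagen called, at least 17.9-fold higher in near-term fetuses with no adult array well above background. With the common floor its log2 difference was -1.44 and the call ended (limma adjusted p = 0.175). Its near-term values were -4.07, -1.94, -3.42 and -0.15, highest on replicate 4. LOX, the enzyme that crosslinks elastin and collagen, read -4.42, -5.07, -3.41 and -4.72 in adults and -3.61, -0.68, -3.63 and -0.89 in near-term fetuses and was not called (limma adjusted p = 0.0568). PPIB, a prolyl isomerase of collagen folding, was 2.26-fold higher in near-term fetuses, a call lost after normexp background correction and with median scaling. Among 10 matrix proteases and inhibitors, PLAT and MMP2 were higher in near-term fetuses and TIMP3 and CTSB in adults, counts close to the 15.7% and 12.4% of all genes. TIMP1 had a log2 difference of -0.74 without overlap and no call (limma adjusted p = 0.0698). Without near-term replicate 4 it was called higher near term (-0.91, limma adjusted p = 0.0269). PLAT, tissue plasminogen activator, had levels of -1.21, -0.71, -1.39 and -1.19 in adults and 2.22, 2.65, 2.08 and 1.89 in near-term fetuses, a clear gap (limma adjusted p = 5.85e-05). The calls of TIMP3 (3.48-fold) and CTSB (2.11-fold) were lost in 4 of the 8 fits each, both in those without adult replicate 3 or near-term replicate 1 (adjusted p of up to 0.0746).

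**Figure D2:**
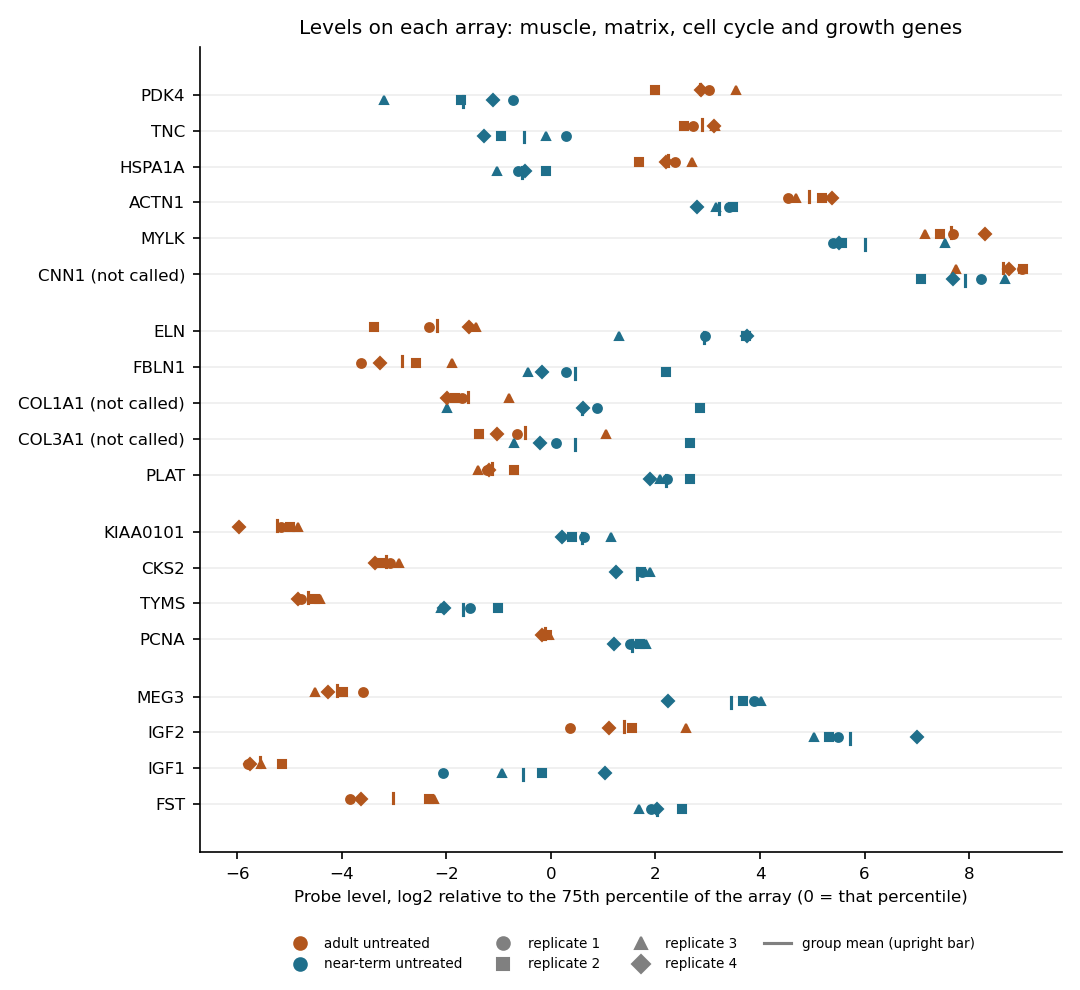
Levels of 19 genes on each of the 8 arrays are shown as log2 values relative to the 75th percentile of the array, in orange for adults and blue for near-term fetuses, with a marker shape for each replicate and an upright bar at each group mean. The groups are apart for PDK4, ELN, CKS2, MEG3 and IGF2, whereas near-term replicate 3 lies at the adult level for MYLK and COL1A1.

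Of 12 tested members of the endothelial list, 7 were higher in near-term fetuses and 1 in adults, against 15.7% and 12.4% of all genes. Of these 7, NOS3, KDR, ICAM1 and SELP were well above background on 1, 2, 2 and 3 adult arrays and passed the filter through the near-term arrays alone, where they are high, so the count is given as a description. NOS3, the nitric oxide synthase of endothelium, read -7.73, -7.77, -2.90 and -6.47 in adults and -1.54, -1.22, -2.48 and -0.69 in near-term fetuses. Adult replicate 3 was the only adult array well above background and nearly reached the near-term range, and the mean difference was 26.6-fold (limma adjusted p = 0.00942), with a log2 difference of -2.06 in place of -4.73 when all levels were raised to the floor of the dimmest array. KDR, the main receptor of vascular endothelial growth factor, also had its highest adult value on replicate 3, at -3.24, inside the near-term range of -3.66 to -1.22. Its 6.67-fold difference was lost without adult replicate 1, 2 or 4 or near-term replicate 2 or 4 (adjusted p of up to 0.0734) and with the common floor (limma adjusted p = 0.113). KLF4, a transcription factor of endothelium and of dedifferentiating muscle, read -1.84, -2.20, -1.54 and -2.49 in adults and 0.15, -0.14, 0.21 and 0.68 in near-term fetuses, and the transporter ABCG2 read -1.25, -1.47, 0.28 and -1.03 and 1.66, 1.65, 0.98 and 1.54. Neither overlapped. The adhesion molecules ICAM1 and SELP were higher in near-term fetuses, with log2 differences of -3.15 and -3.11 that became -1.64 and -2.57 with the common floor, while THBD (1.76-fold) kept its call only in the fit without near-term replicate 4. CAV1, the caveolar coat protein of muscle and endothelium, was 3.45-fold higher in adults, lost without adult replicate 1, 2 or 3 or near-term replicate 3 (adjusted p of up to 0.0911). Without adult replicate 3 the list had 6 near-term-higher members.

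The summed level of the 4 endothelial markers named here (KDR, NOS3, TEK, TIE1), taken relative to the 75th percentile on a linear scale, was 0.0293 to 0.342 on adult arrays and 0.299 to 1.2 on near-term arrays. TEK did not pass the filter and so was not tested. Its brightest probe was well above background on 2 near-term arrays and 1 adult array. The part of cell composition in these results was not tested. Among 18 angiogenesis genes, 3 were higher in near-term fetuses and 1 in adults (median difference 0.01). The corresponding shares of all genes were 15.7% and 12.4%, so these counts do not stand apart. The co-receptor NRP1 was 5.49-fold and VEGFA 5.12-fold higher in near-term fetuses, and FGFR2 was 2.66-fold higher in adults. With the common floor the log2 differences of NRP1 and VEGFA went from -2.46 to -1.70 and from -2.36 to -1.22, still called. MET, the hepatocyte growth factor receptor, was well above background on 1 of 4 adult arrays, and its call ended with the common floor, where its log2 difference was -0.47 (limma adjusted p = 0.275) in place of -4.18.

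Of 9 tested leukocyte genes, 7 were called, all higher in near-term fetuses, against 15.7% of all genes (median difference -1.73). One of the 7, CD3E, was well above background on 2 adult arrays and passed the filter through the near-term arrays alone, and 25 genes of the list were named on the arrays, so the count is a description of those tested. FCER1G, the signalling chain of Fc receptors in myeloid cells, read -2.93, -2.25, -1.70 and -2.75 in adults and 0.35, 0.61, 0.35 and 0.47 in near-term fetuses. The near-term arrays agreed closely, and the difference was 7.21-fold (limma adjusted p = 0.000306). ITGB2, the beta-2 integrin of leukocytes, read -5.43, -5.20, -3.30 and -5.50 in adults, again highest on replicate 3, and -1.98, -0.81, -1.66 and -2.04 in near-term fetuses, a log2 difference of -3.24 that became -2.02 with the common floor, still called. CD14, a co-receptor for endotoxin on macrophages, was 5.32-fold higher, CD68, a macrophage lysosomal protein, 2.27-fold and TYROBP 2.71-fold, the last lost without adult replicate 1 (limma adjusted p = 0.0516). CD3E, of T cells, and CYBB, of the phagocyte oxidase, passed with all arrays but were lost in 6 and 7 of the 8 fits without 1 array (adjusted p of up to 0.122), CD3E keeping its call without adult replicate 3 or near-term replicate 1 and CYBB without near-term replicate 1 only. The summed level of the 6 leukocyte markers was 0.386 to 1.01 in adults and 1.67 to 5.4 in near-term fetuses, without overlap. CD14 alone carried much of this sum. Leukocyte calls numbered 5 without near-term replicate 4 and 4 with quantile normalization, with median scaling or with slide as a block. Of 9 genes of complement and innate defence, CD14 alone was called, against 28.1% of all genes. SAA3, an acute-phase serum amyloid, had a log2 difference of 1.23 and no call (limma adjusted p = 0.156), and was called higher in adults without near-term replicate 4 (1.77, limma adjusted p = 0.0283) and with median scaling, slide as a block or array weights.

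Interferon-response genes gave 6 near-term-higher calls among 12 tested, against 15.7% of all genes (median difference -0.72), and none in the other direction. MX1, an antiviral GTPase, read -1.85, -1.11, -0.94 and -1.48 in adults and 0.23, -0.08, 1.32 and 1.57 in near-term fetuses, a 4.3-fold difference without overlap (limma adjusted p = 0.00676). The receptor chain IFNAR2 was 2.53-fold higher, and ISG15, a ubiquitin-like protein induced by interferon, 3.19-fold, the latter lost without adult replicate 1 (limma adjusted p = 0.0569). IFNAR1, IRF1 and MX2 were lost in 5, 5 and 6 of the 8 fits without 1 array, each in the fits without adult replicate 1 or 4 (adjusted p of up to 0.104). The list had 4 calls without near-term replicate 4, 3 with slide as a block and 2 near-term-higher calls with median scaling. Cytokines and chemokines gave 5 near-term-higher calls among 11, against 15.7% of all genes, namely IL18 (6.78-fold), IL1B (5.05-fold), CCL2 (7.46-fold), CCL25 (5.63-fold) and TGFB2 (3.47-fold, lost without adult replicate 1 or 2). With the common floor the call of IL1B ended, its log2 difference going from -2.33 to -0.73 (limma adjusted p = 0.201), and those of IL18 and CCL2 went from -2.76 to -1.26 and from -2.90 to -1.63, still called. IL18 and CCL2 were well above background on 3 adult arrays each and passed the filter through the near-term arrays alone, so this count too is a description. CXCL16 was higher in adults at 2.73-fold and turned to near-term-higher without a call after normexp correction. None of 7 antigen presentation genes was called (median difference -0.64), and OLA-DRB1 read -3.72, -3.21, 0.02 and -3.58 in adults and -2.65, -1.49, -3.27 and -1.85 in near-term fetuses, with adult replicate 3 above every other array. Without that array the median of the 7 was -1.32 and 1 was called higher near term.

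Both haemoglobin genes tested were called higher in the near-term artery, although HBA1 was well above background on every array of both ages. The HBB probe was not well above background on any adult array, at -7.73, -7.76, -8.87 and -6.21, and read -1.04, -1.34, -0.80 and 0.42 in near-term fetuses, at least 51.8-fold higher (limma adjusted p = 0.000107). A second HBB probe was also not well above background on any adult array and read -2.66, -2.79, -2.78 and -1.49 in near-term fetuses. Which beta-type globin these probes read was not tested. HBA1 read 2.55, 1.40, 3.24 and 2.54 in adults and 3.62, 3.77, 4.53 and 3.79 in near-term fetuses, a 2.82-fold difference that was lost without adult replicate 1 or 4 or near-term replicate 3 (adjusted p of up to 0.0556). AHSP, the chaperone of alpha globin, was well above background on near-term replicates 2 to 4 and did not pass the filter.

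Of 7 glial and nerve genes tested, 4 were higher near term and 1 in adults, against 15.7% and 12.4% of all genes (median difference -1.28), and 2 of these calls were kept in all 8 fits without 1 array. NPY, the sympathetic cotransmitter, read -4.54, -3.98, -4.08 and -4.13 in adults and -2.42, -1.91, -1.67 and 0.61 in near-term fetuses. The groups did not overlap, and the near-term mean was 7.15-fold higher (limma adjusted p = 0.00849). S100B and GFAP, glial markers, were lost in 5 and 6 of the 8 fits without 1 array (adjusted p of up to 0.104), both without adult replicate 1, 3 or 4 or near-term replicate 1 or 4 and GFAP also without near-term replicate 2, and GFAP turned to adult-higher without a call after quantile normalization. TUBB3 was 2.27-fold higher in adults, lost without adult replicate 1, 2 or 4. The list kept 2 near-term-higher calls without near-term replicate 4 or adult replicate 3. Of 9 leptomeningeal and fibroblast genes, 4 were higher in near-term fetuses, against 15.7% of all genes, and none in adults. The 4 were DCN, IGF2, THY1 and TTR (8.5-fold), a thyroid hormone carrier. The call of THY1 was kept in 2 of the 8 fits without 1 array, those without adult replicate 3 or near-term replicate 3 (adjusted p of up to 0.102), and was lost with slide as a block. The 5 fibroblast and leptomeningeal markers summed to 127 to 171 in adults and 210 to 248 in near-term fetuses, and the 2 red cell markers to 2.64 to 9.48 and 12.8 to 23.7. On the linear scale of these sums the brightest marker dominates, HBA1 for red cells and PTGDS, which was not called, for fibroblasts. The 3 brain and nerve markers summed to 0.181 to 0.79 in adults and 0.983 to 3.16 in near-term fetuses, without overlap. Most of that sum came from S100B, whose own call was lost in 5 of the 8 fits. The 3 fat markers overlapped, at 0.176 to 1.55 and 0.32 to 1.22, as did the 2 muscle markers, at 359 to 751 and 182 to 596. The part of these cells in the other differences was not tested.

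**Figure D3:**
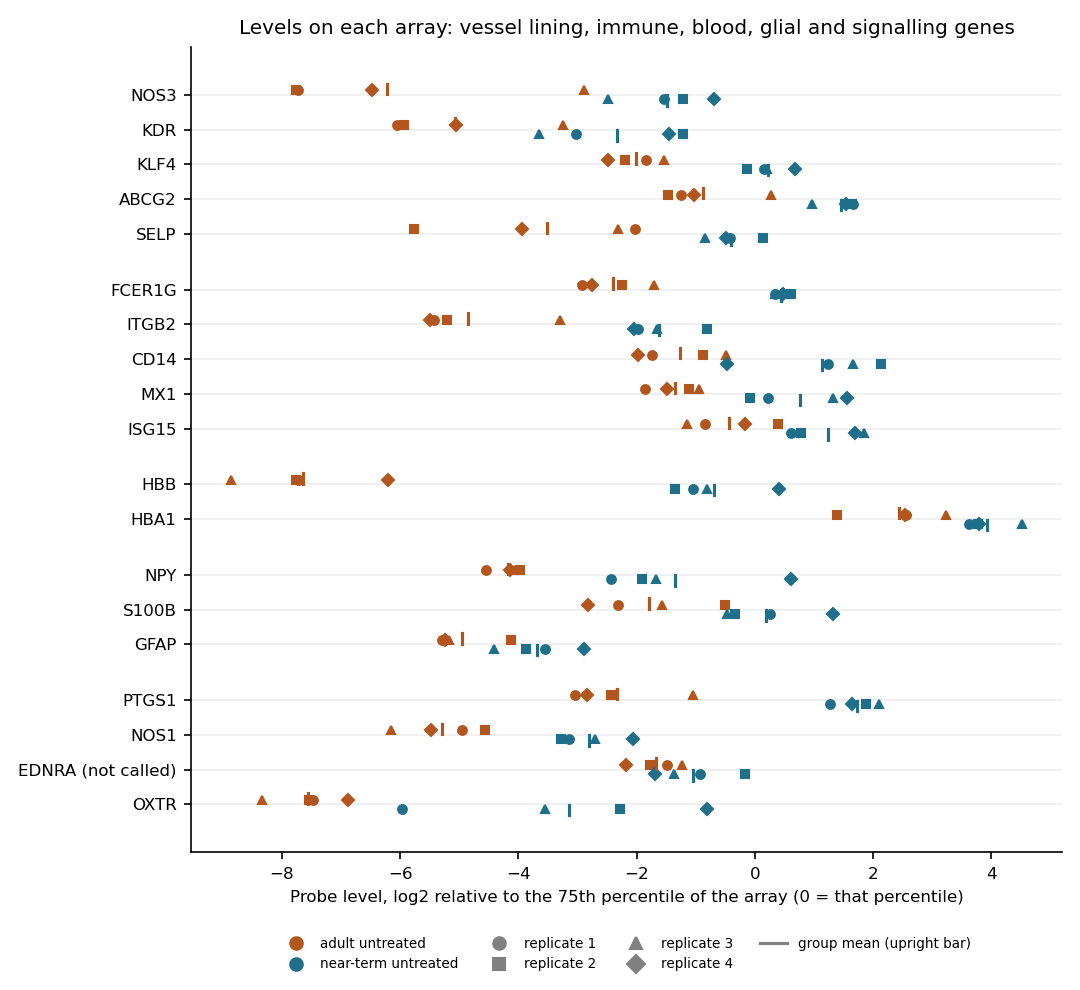
Levels of 19 genes of vessel lining, immune cells, blood, glia and signalling are shown for each array as log2 values relative to the array's 75th percentile, in orange for adults and blue for near-term fetuses, with an upright bar at each group mean. Adult replicate 3, the upward triangle, is the highest adult array for NOS3, KDR and ITGB2, and HBB is below -6 on all adult arrays.

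The ADRB1 and ADRB3 probes were not well above background on any of the 8 arrays, and no alpha-1 receptor is named on the arrays here. Of 11 vasoactive receptor and peptide genes tested, OXTR, the oxytocin receptor, was the one called, against 28.1% of all genes, with -7.47, -7.55, -8.35 and -6.89 in adults and -5.97, -2.27, -3.54 and -0.80 in near-term fetuses. Its near-term values ranged widely and were highest on replicate 4, and its call was lost when all levels were raised to the floor of the dimmest array. EDNRA, the contractile endothelin receptor, read -1.48, -1.77, -1.23 and -2.18 in adults and -0.93, -0.17, -1.37 and -1.69 in near-term fetuses, with overlap and no call (limma adjusted p = 0.22). EDNRB (-1.11), HTR2A (1.27) and ADM (1.11) missed the threshold at adjusted p between 0.0631 and 0.0649. Without near-term replicate 4, HTR2A (log2 difference 1.56, limma adjusted p = 0.0332) and ADM (1.38, limma adjusted p = 0.0264) were called higher in adults.

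Of 14 genes of contraction signalling and ion transport, 3 were called, all higher in near-term fetuses (median difference -0.12). Near-term-higher genes made up 15.7% of all genes, so this count does not stand apart. PTGS1, the constitutive cyclooxygenase, read -3.04, -2.43, -1.04 and -2.83 in adults and 1.27, 1.88, 2.10 and 1.64 in near-term fetuses. The groups were wide apart, and the difference was 16.7-fold (limma adjusted p = 0.000384). PTGS2, the inducible form, had levels of -1.97, -2.23, -2.09 and -1.91 and -1.56, -1.38, -1.53 and -1.69, narrow groups that did not overlap but were not called (limma adjusted p = 0.0708). ATP1B1, a sodium pump subunit, was 5.87-fold and NOS1, the neuronal nitric oxide synthase, 5.62-fold higher in near-term fetuses, the log2 difference of NOS1 going from -2.49 to -0.96 with the common floor, still called. ATP2A2, the calcium pump of the sarcoplasmic reticulum, and PDE4D, a cAMP phosphodiesterase, had log2 differences of 1.37 and 1.64 with overlapping groups and no call, while a second ATP2A2 probe differed by 2.83. Without near-term replicate 4 both were called higher in adults, ATP2A2 at 1.74 (limma adjusted p = 0.0324) and PDE4D at 2.2 (limma adjusted p = 0.0124). TRPV6, an epithelial calcium channel outside the list, read -6.25, -6.02, -7.14 and -5.95 in adults and -2.97, -1.45, -2.06 and 0.76 in near-term fetuses, highest on replicate 4 (limma adjusted p = 0.00172). It was well above background on 1 of 4 adult arrays, and the log2 difference of -4.91 became -2.33 with the common floor (limma adjusted p = 0.0428).

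Among 13 genes of glycolysis and glucose transport, PDK4, PYGM and HK1 were higher in adults and PFKL, SLC2A3 and PGD in near-term fetuses, against 12.4% and 15.7% of all genes. PYGM, the muscle glycogen phosphorylase, read 1.95, 2.66, 1.42 and 2.03 in adults and 0.21, 0.19, 0.52 and 0.35 in near-term fetuses, and PFKL, a phosphofructokinase subunit, read -0.84, 0.82, -0.36 and -0.40 and 1.56, 1.07, 1.56 and 1.27. Neither overlapped. HK1 (1.72-fold) was lost without adult replicate 1, 2 or 4, SLC2A3 (1.9-fold) without adult replicate 1, and PGD (1.69-fold) without adult replicate 1, 2 or 3 or near-term replicate 1 or 3 (adjusted p of up to 0.0828). Of 10 mitochondrial genes, SDHD (3.05-fold) was called, higher in adults, and was lost without adult replicate 1 or 2, a count not above the 12.4% of all genes. Of 18 antioxidant and metal-handling genes, 3 were higher in adults and 5 in near-term fetuses, against 12.4% and 15.7% of all genes (median difference -0.05). SOD2, the mitochondrial superoxide dismutase, was 3.94-fold and the metallothionein MT2A 5.16-fold higher in adults. MT3, a second metallothionein, went the other way, with 1.09, 0.64, 0.71 and 1.20 in adults and 3.06, 2.76, 3.87 and 4.29 in near-term fetuses, and TF, the iron carrier transferrin, was 22.1-fold higher in near-term fetuses.

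Fat-related genes were called about as often as genes at large. Of 14 genes of the fat list 4 were called, against 28.1% of all genes, where PPARG and FADS2 were higher in near-term fetuses and ADIPOR1 and CEBPB in adults. PPARG, a nuclear receptor of fat and of the vessel wall, read -6.38, -6.03, -2.68 and -6.09 in adults and -0.94, -1.06, -2.37 and -0.13 in near-term fetuses, and adult replicate 3 alone approached the near-term values. PPARG and FADS2 were each well above background on 2 adult arrays, and with the common floor their log2 differences went from -4.17 to -2.36 and from -3.17 to -2.05, still called. Of 11 apolipoprotein and sterol genes, APOA1 was the one called, against 28.1% of all genes, with -3.70, -3.73, -1.39 and -3.46 in adults and 1.97, 1.82, -0.65 and 1.08 in near-term fetuses (limma adjusted p = 0.00354). The XIST probe was well above background on 4 of 4 adult and 0 of 4 near-term arrays, with a bound of at least 2.72-fold, and was not called (limma adjusted p = 0.0683). It was called without near-term replicate 4 (log2 difference 2.09, limma adjusted p = 0.0129), and also with quantile normalization, median scaling, slide as a block or array weights. After normexp background correction the difference turned to -1.25 without a call, and with the common floor it was 0.17 (limma adjusted p = 0.408).

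**Figure D4:**
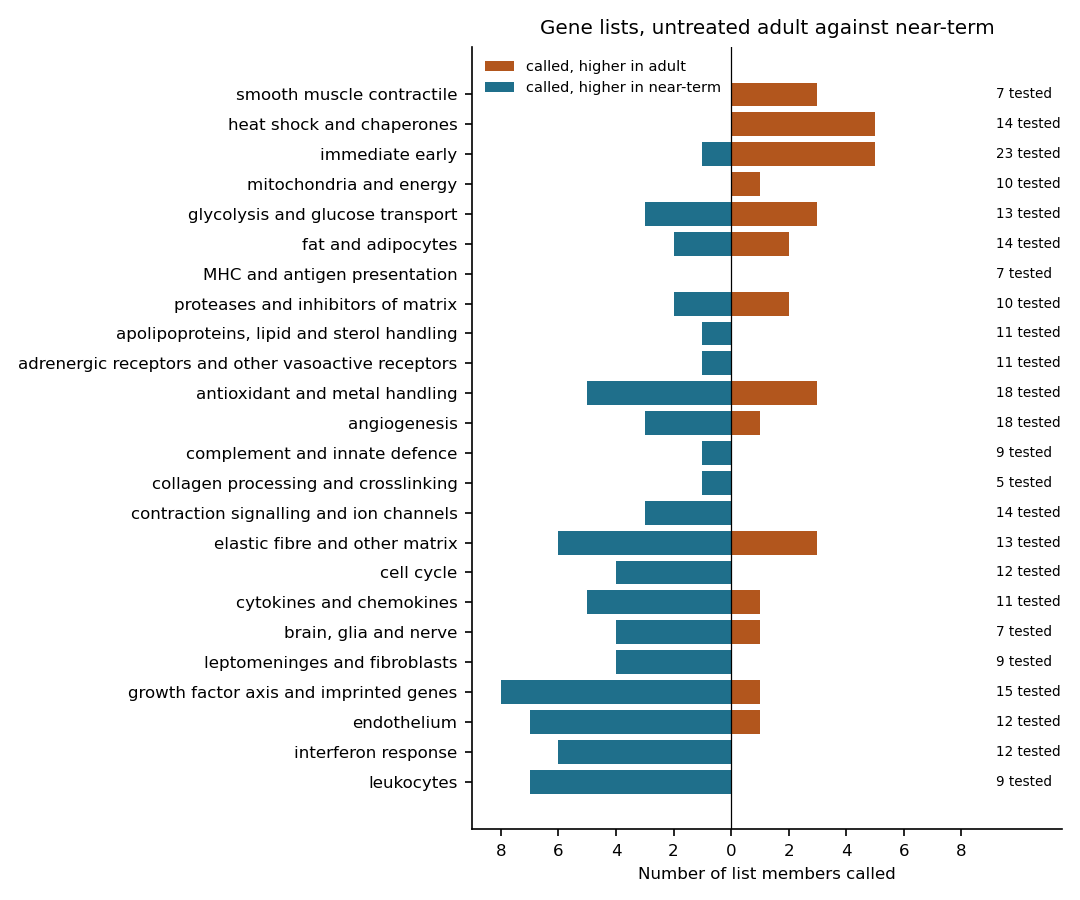
Bars count the members of each gene list called higher in adults (orange, to the right) or in near-term fetuses (blue, to the left), for lists with at least 5 members tested, and the number tested stands at the right. The bars are counts of those tested only, and in the endothelial list 4 of the 7 near-term-higher genes passed the filter through the near-term arrays alone.

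PHE-treated segments of the same ages gave a second set of arrays that shared none with the untreated comparison, although segments may have come from the same animals. In this set all adult arrays were on slide 3 and all near-term arrays on slide 1, so that age and slide cannot be told apart. Here 2418 of 9666 genes were called (25%), 973 higher in adults and 1445 in near-term fetuses. Each set represents a gene by its own brightest passing probe, which for a few genes differs between the sets. Of the genes tested in both sets, 1090 were called in the same direction, 42.7% of the untreated calls and 51.9% of the PHE calls, and 11 in opposite directions. Among adult-higher calls the share repeated was 37.9%, against 10.7% of all genes tested in both that were called adult-higher with PHE, and among near-term-higher calls 46.6% against 12.4%. Without near-term PHE replicate 1, the dimmest PHE array, 1115 genes were called the same way and 49 the opposite way.

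Of the 15 near-term-higher genes with the largest difference, 15 of 15 had the same direction with PHE and 13 were called, all but TRPV6 and EZH2. ELN reached -8.76 on the log2 scale, KIAA0101 -5.29, EML1 -5.50 and HBB -5.35. MEG3 differed by -3.78. Of the 15 adult-higher genes with the largest difference, 8 had the same direction and 3 were called, PDK4 (3.0), TNC (1.34) and TACC1 (1.30). HSPA1A gave -0.56 and ATF3 -0.61, neither called. With PHE, no member of the heat shock list was called higher in adults and 1 was called higher in near-term fetuses. Fibrillar collagens, not called in untreated arteries, were higher in near-term fetuses with PHE, COL1A1 by -5.94 and COL3A1 by -4.31 on the log2 scale as adult minus near-term. CKS2 (-1.29), KLF4 (-0.16) and MT3 (-0.33) were not called with PHE. By list, the endothelial genes gave 7 near-term-higher calls in each set and the growth factor axis 8 in each. The members differed in part, since KLF4 and IGFBP6 were called untreated but not with PHE. Leukocyte genes gave 2 of 8 with PHE, where 14.9% of all genes were called near-term-higher. Tested directly, the change in age difference between PHE and untreated arrays passed for 0 genes in limma, with 1603 at an unadjusted p under 0.05, so that no gene's age difference is shown to differ between the 2 sets.

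**Figure D5:**
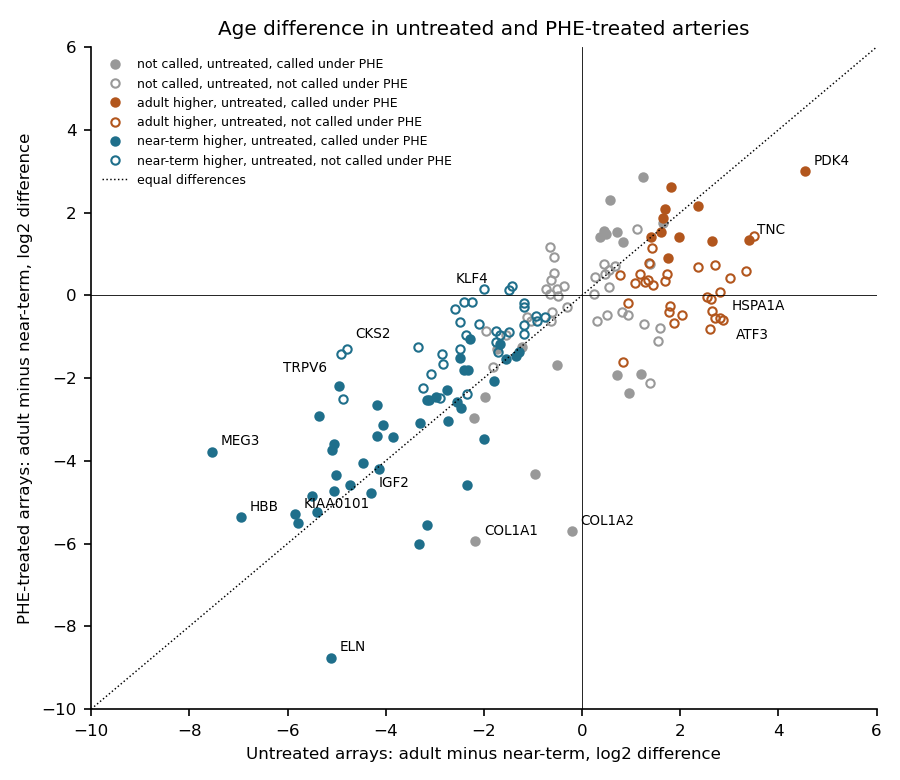
The adult minus near-term log2 difference of each named gene is shown for untreated arrays (x axis) and PHE-treated arrays (y axis), with filled points called under PHE, colours giving the untreated call and a dotted line where both differences are equal. For a few genes, COL1A2 and ACTB among them, the sets used different probes. Near-term-higher genes stay below 0 in most cases, whereas many adult-higher genes such as HSPA1A and ATF3 lie near 0 or below it with PHE.

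Untreated arteries of premature fetuses (96 days of gestation) and newborn lambs (12 hours old in the labels, 5 days in the design text), scanned on another day, are given as a description without a test. The premature mean was nearer to the near-term than to the adult mean for 72.1% of near-term-higher and 79.5% of adult-higher calls, and the newborn mean for 58.8% and 66.3%. MEG3 read 3.34 ± 0.71 (SD, n = 4) in premature fetuses and 2.13 ± 0.43 in newborn lambs, ELN 2.29 ± 0.13 and 2.85 ± 0.94, and CKS2 3.07 ± 0.25 and 2.72 ± 0.37. For these genes newborn levels were nearer to the fetal than to the adult ones. IGF2 read 4.35 ± 0.27 in premature fetuses but 0.99 ± 0.57 in newborn lambs, near the adult mean of 1.41 ± 0.92. HSPA1A read -0.51 ± 0.16 and 1.36 ± 0.66, and TNC -2.58 ± 0.30 and 1.58 ± 0.45, the newborn values lying between the near-term and adult means. TRPV6, OXTR, COL4A3 and NOS1 were not well above background on any premature or newborn array, although they were above it on all 4 near-term arrays.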

How the data were processed

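RNA from untreated MCA was amplified, labelled with Cy3 and hybridised to 1-colour Agilent sheep arrays. Per the file headers, the deposited intensity values came from Agilent Feature Extraction 9.5.3.1, which subtracted background and put surrogate values in place of the dimmest spots, with no scaling between arrays. The authors' value table held the same intensities on 32 of 32 arrays. Because the percentile scaling is relative, a shift shared by most genes would not be seen.

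Outlier spots were left out, spots of a probe averaged, and log2 intensities centred on each array's 75th percentile. A probe entered the test when the scanner software marked it as clearly brighter than background on each array of at least 1 age (9731 of 15008). Each gene was represented by its passing probe with the highest mean level. Ages were compared with limma 3.58.1 (R 4.3.3) on the 8 arrays, with Benjamini-Hochberg adjustment over all genes tested. For a probe not well above background on any array of one group, the fold is a lower bound against the lowest level resolved on each of those arrays. The number of arrays limits the precision. Symbols came from the RefSeq gene table (654 probes), the array files (808) or a match of the study's listed group means to the intensities within 0.1% (1626), and 11920 probes stayed without one. Where a probe had both a matched and a reference name, they were identical for 50 of 64, and with a file name for 72 of 128, the rest being older symbols, related genes and some different genes. The names of PDK4, TNC, MEG3, KIAA0101, ELN and CKS2 rest on this match, as do those of most of the 15 leading genes in each direction. The study's listed values served this match only. Named genes were, in each direction, the 15 with a symbol and the largest called difference that were well above background on all 4 arrays of the higher group, did not overlap and were also called without near-term replicate 4, then up to 6 per gene list by smallest p and the measured adrenergic receptors, haemoglobins and XIST. Some further list members were chosen after their values were seen. The members and the 28 gene lists were chosen with earlier results of these data known. Other scalings, filters, tests, blocks and left-out arrays were tried as alternatives. The test was checked on simulated data. 1 member of the brain, glia and nerve list, counted with it, is not reported here by name. No sequence is shown.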

Additional observations from a re-analysis of the deposited data

Results flagged for a closer look

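Single arrays stood far from the other 3 of their group for 16 of the 340 gene and group combinations examined. Chance picks about 1 in 20, so this number is no higher than chance gives. The gap to the nearest array, as a share of the group's whole range, exceeded Dixon's critical value for 4 samples in each. Adult replicate 3 was the highest adult array for VWA1 (share 0.837, level -0.88), EML1 (0.862, -5.37), KIF26A (0.872, -4.01), OLA-DRB1 (0.863, 0.02), ITGB2 (0.865, -3.30), PPARG (0.906, -2.68), MYC (0.900, -0.22) and APOA1 (0.884, -1.39), and the lowest for ACTG1 (0.952, 7.26). Adult replicate 3 also had the highest 75th percentile intensity of the 8 arrays, at 1710. Adult replicate 2 was the lowest for NUDT4 (0.969, -1.76) and the highest for IGFBP5 (0.908, -1.89), GFAP (0.900, -4.12) and HK1 (0.833, 2.40). Among near-term arrays, replicate 3 was the highest for MYLK (0.922, 7.54) and the lowest for NRP1 (0.897, -2.70), and replicate 4 was the lowest for SOD2 (0.862, -1.38).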

How the results depend on the processing

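Of 2632 calls, 1534 were kept in all 8 fits without 1 array, 573 of them adult-higher and 961 near-term-higher. Leaving out 1 array gave 1662 to 2785 calls, with 655 to 1316 higher in adults. The dim end of the scale lay at a different level on each array. Fitting all 32 arrays gave 4140 calls (1966 adult-higher). The methods' t-test gave 2983 calls unadjusted and 1349 after Benjamini-Hochberg adjustment (503 and 846), with 51 list members called against 105. Normexp background gave 4710 calls (3466 near-term-higher, 168 list members), quantile normalization 1770 adult-higher, median scaling 753 near-term-higher, and no filter 6001 (4863 near-term-higher, 195 list members). Near-term replicates 1 and 3 alone, chosen after seeing the data, gave 1783 adult-higher calls. Tests within a slide, also chosen after seeing the data, gave 331 calls on slide 2 (119 and 212, 19 list members) and 597 on slide 3 (73 and 524, 35 list members), with fewer arrays. With the replicate block, 1712 genes were called (621 adult-higher). Same-numbered arrays correlated at 0.192, -0.264, -0.401 and 0.166, and not every array correlated best with its own number. Whether same-numbered samples share more than a number is not given in the sources. Raising all levels to a common floor, chosen after seeing the data, gave 2446 calls, 2292 of them also called without it. Among named genes it ended the calls of COL4A3, OXTR, IL1B, MET, IRF1, MX2, CD3E, CYBB, KDR, GFAP, THY1, MYC and ALDH1A1. Log2 differences with a call on either side changed sign after normexp background for DNAJC11 (-0.65), TRIM47 (-0.19), CARM1 (-0.63), ADAMTS2 (-0.97), CXCL16 (-0.27), DNAJB1 (-0.76), HMOX2 (-0.18) and SREBF2 (-1.44), and after quantile normalization for GFAP (0.56). A further 12 named genes changed sign with no call on either side after normexp background, and 5 after quantile normalization. The cause was not tested. Over all alternatives of the named genes' differences, 4229 values kept their direction and side of the threshold, 439 lost the call, 155 gained one, 47 changed sign with no call on either side and the 9 listed by name changed sign with one.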

Other observations

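Differences of at least a stated fold also held for genes outside the lists. GRIA1, a glutamate receptor subunit, was not well above background on any adult array and was at least 12.4-fold higher in near-term fetuses (limma adjusted p = 0.000267). TKDP5, a trophoblast Kunitz domain protein, was at least 11.8-fold higher near term (limma adjusted p = 0.00067). In the other direction, ZMYND11 was at least 2.19-fold (limma adjusted p = 0.0187) and OSTM1 at least 1.62-fold higher in adults (limma adjusted p = 0.0429), with no near-term array well above background. These 4 genes were chosen after their values were seen.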
